A study of Mus musculus with 24 samples.

Results

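This report describes *Gem*, its relatives among the RGK small GTPases (*Rrad*, *Rem1* and *Rem2*) and the calcium channel beta subunits that RGK proteins bind (*Cacnb1*, *Cacnb2* and *Cacnb4*) in young and old HSCs. The members were taken by gene symbol. Of 8 named members, 7 had a row among the 18762 genes of the table, and *Cacnb3* was not analysed here. The family was chosen by the age difference of *Gem* in these same mice, so the age values below are a description, and calls on *Gem* between the ages support nothing. Of the 7 members, 5 reached the minimum mean normalized read count of 10 at which genes were tested, whereas *Rem1* and *Rem2* stayed below it.

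LSK-SLAM cells, which are lineage-negative bone marrow cells with Sca-1, c-Kit and CD150 but without CD48 and are rich in HSCs, were sorted from Wt C57BL/6 mice. The groups were 5 young mice, aged 4 to 5 months per the labels, and 7 old mice, aged 20 to 22 months, while the paper's text gives other ages for both groups. Each mouse carried 2 of the 24 sample labels but 1 column of the table, and was counted as 1 replicate. Each label also ends in a letter that the labels do not explain, with A carried by 2 young and 4 old mice and B by 3 young and 3 old mice.

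RGK proteins are Ras-related GTPases that sit at the inner face of the cell membrane. They bind the cytoplasmic beta subunits of voltage-gated calcium channels and lower the calcium current, a role best known from heart, muscle, neurons and endocrine cells. *Gem* was first described as a gene induced in activated T cells, and its protein also binds regulators of the actin and microtubule cytoskeleton.

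The GTP-binding loop, which RGK proteins have in common with other Ras-like GTPases, is shown so that its bases can be compared between the relatives. Each stretch runs 5′ to 3′ on the coding strand of a GENCODE vM21 transcript, and capitals mark the 24 bases that encode the loop.
Gem: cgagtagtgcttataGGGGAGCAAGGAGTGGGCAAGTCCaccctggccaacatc
Rrad: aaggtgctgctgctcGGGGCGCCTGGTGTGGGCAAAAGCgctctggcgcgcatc
Rem1: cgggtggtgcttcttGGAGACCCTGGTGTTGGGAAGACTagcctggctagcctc
Rem2: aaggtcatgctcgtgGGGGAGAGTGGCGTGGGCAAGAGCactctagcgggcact

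The loop starts at codon 81 of 295 in *Gem*, at codon 97 of 307 in *Rrad*, at codon 87 of 297 in *Rem1* and at codon 122 of 341 in *Rem2*. Between *Gem* and its relatives, 15 (*Rem1*), 17 (*Rrad*) and 18 (*Rem2*) of the 24 loop bases were equal. Over the whole coding sequence *Gem* had 66.6% identity with *Rrad*, 64.1% with *Rem1* and 63.7% with *Rem2*. No stretch of 50 bases in the exons of *Gem*, *Rem1* or *Rem2* occurred in another annotated gene, while 5.84% of such stretches did in *Rrad*.

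*Gem* (ENSMUSG00000028214) lies on chromosome 4 from 11704457 to 11714752 in GRCm38, plus strand, with no annotated gene overlapping it. *Rrad* (ENSMUSG00000031880) lies on chromosome 8 from 104628070 to 104631327, minus strand, opposite *Gm33023*. *Rem1* (ENSMUSG00000000359) is on chromosome 2 from 152626951 to 152635198, and *Rem2* (ENSMUSG00000022176) on chromosome 14 from 54476100 to 54480431, both plus strand. Among the beta subunits, *Cacnb1* (ENSMUSG00000020882) is on chromosome 11 from 98001508 to 98023034, minus strand. *Cacnb2* (ENSMUSG00000057914) spans chromosome 2 from 14603088 to 14987908 on the plus strand, and *Cacnb4* (ENSMUSG00000017412) spans it from 52428320 to 52676831 on the minus strand. These long loci overlap 15 and 3 other annotated genes, and 5.90% and 15% of their 50-base stretches occurred elsewhere. Reads in *Cacnb2* and *Cacnb4*, and in *Rrad* with 5.84% of stretches shared, are therefore less surely their own.

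The values are normalized read counts, that is reads on a gene scaled by the authors to library size with a scaling factor for each mouse. Each mouse had between 0.861 and 5.12 M recovered reads on genes (M for 1000000), with medians of 3.48 M in young and 2.22 M in old mice. The paper states a larger sequencing depth, so these totals are not the reads sequenced. In normalized read counts, 3 reads were worth between 0.583 and 3.69. Mice of letter A had between 0.861 and 3.11 M reads and mice of letter B between 3.23 and 5.12 M. The sorted fraction showed genes of the gate and of HSCs, with a mean of 1508 for *Kit* and 979 for *Hlf*, against 6.18 for *Cd48*. The summed level of 8 such HSC markers lay between 3062 and 5373 in young mice and between 1583 and 5912 in old mice, and it was lowest in old mice 5 and 7, both of letter A.

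*Gem* was higher in every old mouse than in every young mouse. In young mice 1 to 5 its normalized read counts were 26.4, 32.2, 40.8, 32.2 and 31.7, a mean of 32.7 ± 5.16 (SD, n = 5). In old mice 1 to 7 they were 119, 131, 90.4, 120, 55.2, 77.9 and 45.5, a mean of 91.3 ± 33.5 (SD, n = 7). The groups did not overlap, and the lowest old mouse, 7, stood above the highest young mouse, 3. The mean was 2.79 times as high in old mice, with a difference of 1.37 (SE 0.26) on the scale of log2(value + 1). In these bulk samples a larger number of cells that express a gene and more RNA per cell cannot be told apart.

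The young mice were close together, with a coefficient of variation of 15.8% against 36.7% in the old mice. The 3 old mice of letter B all had 90.4 or more, while of the 4 old mice of letter A only mouse 1 did. Within letter A the old mean was 2.54 times the young mean, and within letter B 3.26 times. Since no old mouse overlapped the young mice, the ages could not overlap within either letter, and nothing is read from this. The old mice with the lowest *Gem*, 5 and 7, were also those with the lowest summed HSC markers, 1583 and 2295, and the fewest reads. Without them the difference was 1.68 (SE 0.19), an alternative chosen after the data were seen.

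Summed marker lists were also compared across the same mice. The summed level of the megakaryocyte markers, which hold *Vwf*, the gene of von Willebrand factor, lay between 353 and 584 in young mice and between 387 and 902 in old mice. The endothelial markers, which also hold *Vwf*, lay between 563 and 680 in young and 620 and 1127 in old mice, and old mice 5, 6 and 7 were lowest among the old in both lists, as they were for *Gem*. The granulocyte and monocyte markers reached 3547 in old mouse 6, against 217 to 687 in young mice, and *Gem* without that mouse differed by 1.40. No gene of these marker lists was called between the ages by limma, edgeR or DESeq2, while at an unadjusted p under 0.05 in limma 2 megakaryocyte markers, 2 endothelial markers and 0 granulocyte and monocyte markers differed. The granulocyte and monocyte markers gave 2 with edgeR's quasi-likelihood test, 3 with its likelihood ratio test and 2 with DESeq2, and the median difference of their 7 tested genes was 0.53 in limma and 1.18 in the quasi-likelihood fit. The markers with such a p in limma did not all go one way. *Pf4* of the megakaryocyte list was at 41.0 ± 26.4 (SD) for young and 14.6 ± 6.22 (SD) for old mice, and *Emcn* of the endothelial list at 52.6 ± 8.37 (SD) and 33.4 ± 11.4 (SD). In both lists the higher gene was *Vwf*, at 285 ± 60.02 (SD) for the 5 young and 501 ± 154 (SD) for the 7 old mice. Limma called *Vwf* without old mice 5 and 7. Its mean over all mice was 411, against at most 113 for any other gene of either list. Both sums thus carry the same gene and are not separate observations. The paper also describes *Vwf*-positive HSCs, so *Vwf* does not mark other cells alone. The part of these markers in the *Gem* difference was not tested.

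**Figure D1:**
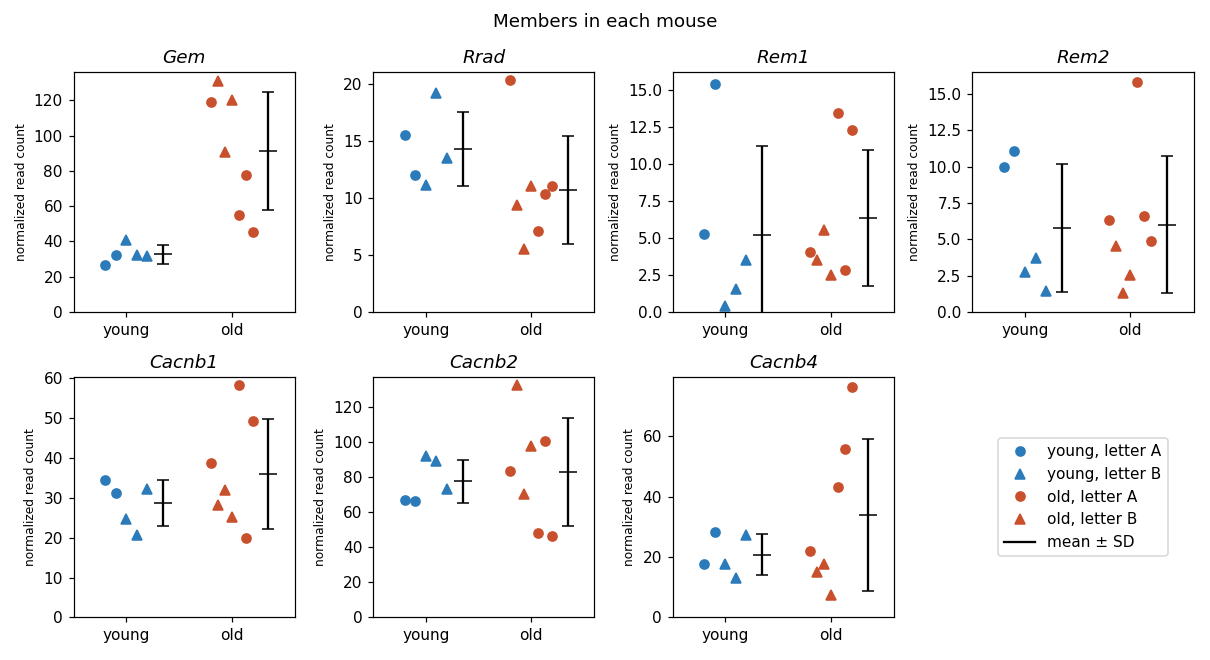
Normalized read counts of the 7 members in each mouse, with circles for letter A, triangles for letter B, and the mean ± SD of each age beside the points (the *Rem1* bar is drawn only down to 0). The old mice sit above all young mice for *Gem*, from 45.5 upwards against 40.8 downwards, while the ages overlap for the other 6 members.

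Read against the background, *Gem* was 1 of 5 tested members higher in old mice at an adjusted p under 0.05 in limma, where 0.0971% of all 12354 genes were higher and 0.105% changed in either direction. It was also the member without overlap, where 0.291% of genes were higher in every old mouse and 0.461% did not overlap in either direction. The same count of 1 of 5 was reached with edgeR's quasi-likelihood test (0.13% of genes higher), its likelihood ratio test (0.299%), DESeq2 (0.397%) and limma with the letter as a covariate (0.283%). In each, the member called was *Gem*. These counts follow from its choice and are not read further.

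Nor did the other tested members reach the threshold. None of the 4 was called by limma, edgeR or DESeq2, and none had an unadjusted p under 0.05 in limma, where 3.95% of all genes had.

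**Figure D2:**
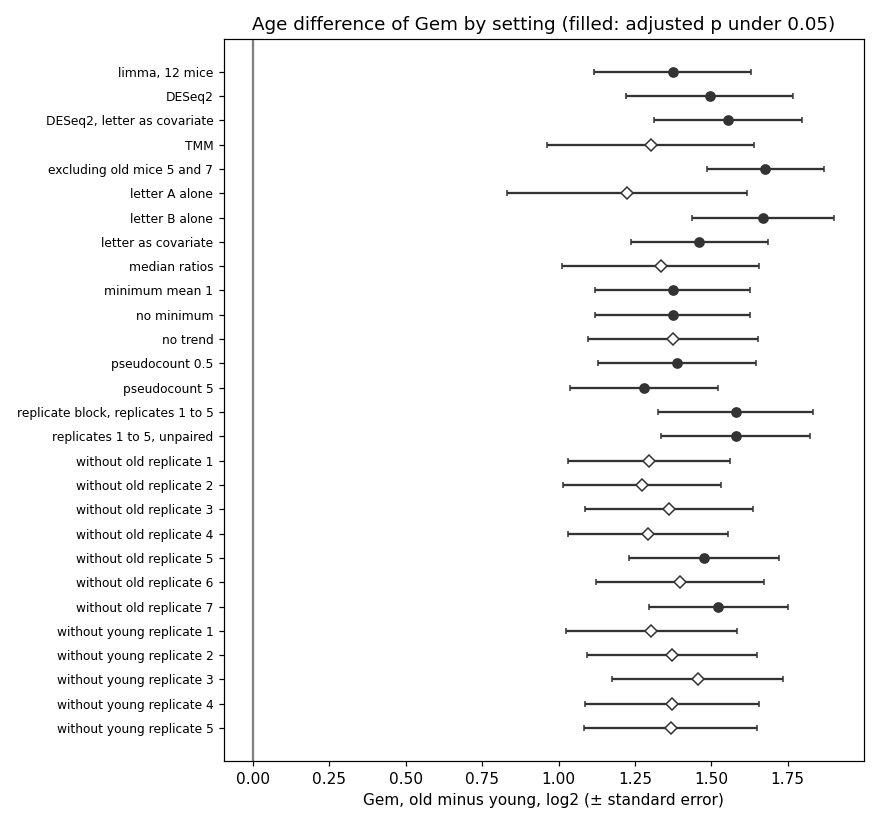
Difference of *Gem* between old and young mice on the log2 scale, with its standard error, in each setting that gave one, filled where the adjusted p over all genes was under 0.05. Every setting lies to the right of 0, between 1.22 and 1.68.

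The value also varied with the mice and settings used. Leaving out 1 mouse at a time gave differences between 1.27 and 1.52, and *Gem* was called in 2 of these 12 fits, those without old mouse 5 and without old mouse 7. It was not called after rescaling by TMM (1.30) or by median ratios (1.33), without the variance trend (1.37), or in letter A alone (1.22).

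In the relatives of *Gem* the ages overlapped, but as *Gem* was chosen for its difference, this contrast is a description only. *Rrad*, an RGK protein known from skeletal muscle and heart, had normalized read counts of 15.6, 12, 11.2, 19.2 and 13.5 in young mice 1 to 5. In old mice it ranged from 5.55 to 20.3, with a median of 10.4. The means were 14.3 ± 3.22 (SD, n = 5) for young and 10.7 ± 4.74 (SD, n = 7) for old mice, which differed by −0.45 (SE 0.40). Old mouse 1 held the highest value of all, and the other old mice lay at or below 11.1. Within letter B the mean of the 3 old mice was 0.592 times that of the 3 young mice, and within letter A the ratio was 0.887.

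*Rem1* and *Rem2*, RGK proteins known from heart and from neurons, were close to the limit of detection. *Rem1* rested on 2 to 32 reads per mouse, with values of 5.29, 15.4, 0.392, 1.57 and 3.53 in young mice and from 2.53 to 13.4 (median 4.07) in old mice. *Rem2* rested on 4 to 32 reads, with values of 9.95, 11.1, 2.75, 3.73 and 1.47 in young mice and from 1.31 to 15.8 (median 4.92) in old mice. The ages overlapped for both, with differences of 0.51 (SE 0.64) and 0.06 (SE 0.61), and a difference between the ages was not detectable at this depth.

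The beta subunits, which carry the pore subunit to the membrane and are the docking site of RGK proteins, likewise overlapped between the ages. *Cacnb2*, the main beta subunit of heart, had 67.2, 66.3, 92.2, 89.1 and 73.2 in young mice and from 46.7 to 133 (median 83.6) in old mice, a difference of 0.02 (SE 0.24). *Cacnb1*, the beta subunit of skeletal muscle, had 34.5, 31.2, 24.7, 20.6 and 32.3 in young mice and from 19.8 to 58.4 (median 32.0) in old mice, a difference of 0.26 (SE 0.27). For both, the old mice spread to either side of the young mice. *Cacnb4*, best known from brain, had 17.7, 28.4, 17.7, 13.1 and 27.3 in young mice and from 7.39 to 76.2 (median 22.1) in old mice, a difference of 0.37 (SE 0.46). Its old values split by letter, since old mice 5, 6 and 7 of letter A had 43.4, 55.7 and 76.2 and the old mice of letter B at most 17.6. The difference between ages therefore had opposite signs within the letters, 0.97 in A and −0.53 in B. The change between letters itself was −1.5 (SE 0.65, adjusted p = 0.9998 in limma), and of the 5 tested members none passed this test and 1, *Cacnb4*, had an unadjusted p under 0.05. Of all genes, 0.0162% passed and 3.43% had an unadjusted p under 0.05.

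Levels between genes were compared per kb of exon. *Gem* was the highest member in 12 of 12 mice, with a mean of 31.8 per kb, 15.5 ± 2.45 (SD) for the 5 young and 43.4 ± 15.9 (SD) for the 7 old mice. *Rrad* followed at 7.74, then *Cacnb1* at 7.27, *Cacnb2* at 6.10, *Cacnb4* at 3.18, *Rem1* at 2.72 and *Rem2* at 2.63. Neighbours in the order after *Gem* differed by less than the SD over mice, except that *Cacnb2* and *Cacnb4* differed by more. *Gem* exceeded the next member at least 1.25 times in young mice and at least 1.99 times in old mice.

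*Gem* made up 53.1% ± 11.1 (SD) of the summed RGK level per kb in the 5 young mice and 75.9% ± 12.1 (SD) in the 7 old mice. The sum itself was 29.6 ± 3.37 per kb in young and 55.8 ± 14.8 in old mice, whereas the summed beta subunits were at 14.5 ± 1.11 and 18.0 ± 3.34. The ratio of RGK to beta subunit level was 2.05 ± 0.289 in young and 3.26 ± 1.20 in old mice. These shares hold the *Gem* difference that chose the family and add nothing independent to it.

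To show how far these levels stood above what a blood stem cell library gives for genes of other tissues, 12 muscle, neuron and glia markers were set beside them. Their means ran from 1.12 (*Snap25*) to 4.70 (*Actc1*) per kb, with a median of 3.58. *Gem* was above all 12 markers in 12 of 12 mice, *Cacnb1* in 8 mice, *Rrad* in 7 and *Cacnb2* in 5. These counts split by letter, with 2 mice of letter A and 6 of letter B for *Cacnb1*, 2 and 5 for *Rrad*, and 0 and 5 for *Cacnb2*. *Cacnb4*, *Rem1* and *Rem2* were never above all 12, and their means lay below the median marker. The median marker was higher in mice of letter A (3.13 to 7.09 per kb) than in mice of letter B (0.633 to 2.76), without overlap.

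**Figure D3:**
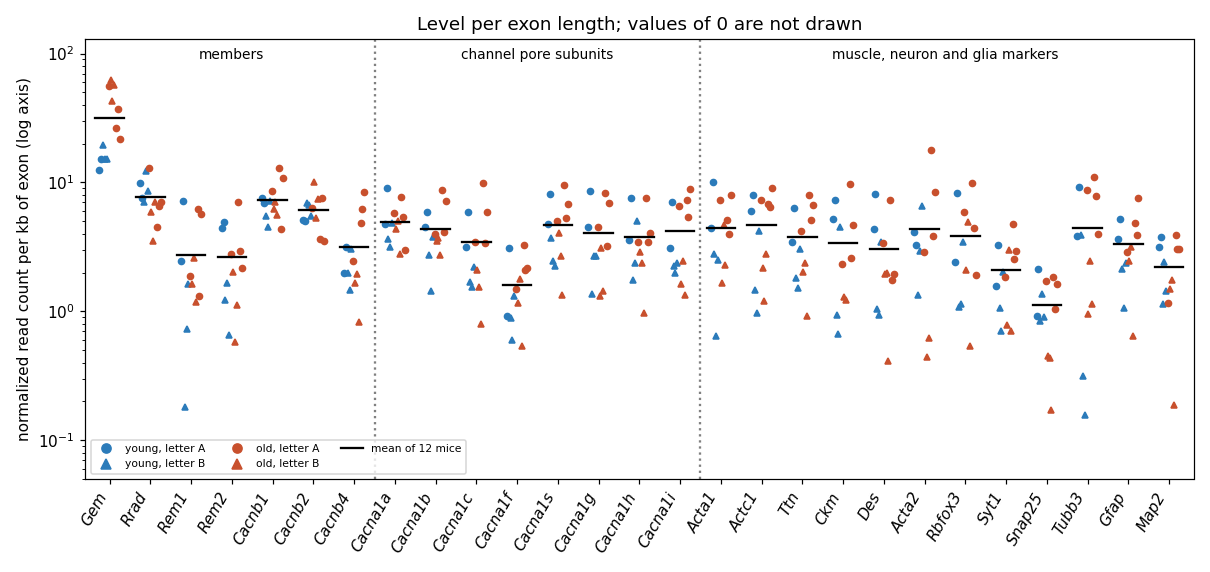
Normalized read count per kb of exon (log axis) in each mouse for the members, the channel pore subunits and the muscle, neuron and glia markers, with bars at the mean of 12 mice. *Gem* stands at a mean of 31.8 and clear of the markers, whose means lie between 1.12 and 4.70, while *Rem1*, *Rem2* and *Cacnb4* lie among them.

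The comparison of letters, with age as a covariate, did not enter the choice of the family. *Cacnb4* was lower in letter B by limma, at 16.3 ± 6.58 (SD, n = 6) against 40.6 ± 22.5 (SD, n = 6) in letter A, a log2 difference of −1.15 (SE 0.34, adjusted p = 0.0123 in limma). It was 1 of 5 members tested to be called, where 36.1% of all genes were, so that a call among the members was no more frequent than among all genes. This call was lost without old mouse 4, at −0.87 (adjusted p = 0.05002 in limma). With the minimum mean lowered to 1, *Rem2* was called as well (2 of 7 members, where 37% of genes were called). *Rem2* was at 2.72 ± 1.26 in letter B and 9.11 ± 4.02 in letter A, which is −1.45 on the log2 scale (SE 0.50, adjusted p = 0.0231 in limma). *Rem1* missed the threshold in that fit at −1.25 (SE 0.54, adjusted p = 0.0628 in limma).

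*Gem* and *Cacnb2* had the opposite sign. *Gem* was at 74.4 ± 45.3 (SD, n = 6) in letter B and 59.4 ± 34.4 (SD, n = 6) in letter A, and with age as a covariate it differed by 0.50 (SE 0.22, adjusted p = 0.0744 in limma). *Cacnb2* differed by 0.46 (SE 0.21, adjusted p = 0.0857 in limma), and neither passed the threshold. After rescaling by TMM or median ratios both were called as higher in letter B, as was *Gem* without old mouse 1 (0.63) and *Cacnb2* without old mouse 6 (0.56), but these scalings moved the median letter difference of all genes from −0.09 to 0.29 and 0.23. *Cacnb1* (−0.40, SE 0.26, adjusted p = 0.222 in limma) and *Rrad* (−0.22, SE 0.39, adjusted p = 0.691 in limma) did not pass, and the sign of *Rrad* turned under these scalings. *Cacnb2* gave 47.1% ± 8.91 (SD, n = 6) of the summed beta subunit level per kb in letter B and 29.7% ± 10.9 (SD, n = 6) in letter A. *Cacnb4* gave 12.3% ± 4.56 and 23.8% ± 9.93. However, the mean of *Cacnb4* lay below the median muscle, neuron and glia marker, which was itself at 4.10 per kb in letter A and 1.40 in letter B. The part of this background in the shares was not tested. Of the 8 HSC markers, 4 were higher in letter B by limma and 0 lower, where 10.5% of all genes were higher. Their median letter difference was 0.69. With TMM scaling all 8 were higher in B, where 30.3% of all genes were. What the letter stands for, and the part of read depth and of the HSC markers in these differences, was not tested.

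Genes around the RGK proteins were taken from 5 lists of 72 genes, of which 58 had a row and 52 were tested. None was called between the ages by limma, edgeR or DESeq2, and 1 had an unadjusted p under 0.05 in limma, where 3.95% of all genes had. With so few genes this count cannot be told from that share. That gene was *Stim2*, a calcium sensor of the endoplasmic reticulum, at 50.8 ± 6.20 (SD, n = 5) for young and 65.1 ± 6.42 (SD, n = 7) for old mice, or 0.35 (SE 0.17) on the log2 scale. With the letter as a covariate, after either rescaling or with the likelihood ratio test, no gene of its list had such a p. The median difference of the 52 genes was 0.07, against −0.02 over all genes tested.

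The pore subunits, which form the voltage-gated channel itself, were measured for 8 of 10 genes. Of these, 6 had a positive age difference, with a list median of 0.18 that was −0.06 with the letter as a covariate, and their highest means were those of *Cacna1c* (73.2) and *Cacna1a* (56.7). Per kb their means ran from 1.62 to 4.97, where the muscle, neuron and glia markers ran from 1.12 to 4.70. Between letters, 6 of 8 were lower in B by limma, where 25.6% of all genes were lower and 10.5% higher, most of all *Cacna1c* (−1.61), *Cacna1i* (−1.57), *Cacna1g* (−1.51) and *Cacna1s* (−1.26). Of the alpha2delta and gamma subunits, which accompany the pore, 7 of 12 were tested, with a median age difference of 0.38 (0.05 with the letter as a covariate) and *Cacna2d1* (32.6) and *Cacna2d2* (31.5) at the highest means. All 7 were lower in letter B by limma, most of all *Cacng2* (−2.05), *Cacng5* (−1.89), *Cacng4* (−1.55) and *Cacng3* (−1.49), and 3 of the 7 with TMM scaling, where 18.5% of all genes were lower and 30.3% higher. The median letter difference was −1.16 for the pore subunits and −1.49 for the accompanying subunits, beside −1.49 for the 2 muscle and −1.27 for the 4 neuron and glia markers that were tested.

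Binding partners and cytoskeletal effectors of RGK proteins were tested for 14 of 20 genes, with a median age difference of −0.06 and 5 positive signs. The highest means were those of the 14-3-3 protein *Ywhae* (522) and of the kinase *Rock1* (213), whose protein Gem binds. Between letters, 5 were higher in B, among them *Ywhah* by 1.26, *Rhoa* by 1.09, *Ywhab* by 0.76 and *Calm2* by 0.66. The kinesin *Kif9* (−1.13), a known Gem partner, and *Camk2b* (−1.03) were lower. With TMM scaling 10 of the 14 were higher in B and 2 lower, where 30.3% of all genes were higher and 18.5% lower.

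Store-operated calcium entry, a main calcium route of blood cells, was tested for 17 of 18 genes, with a median age difference of 0.08 and the calcium pumps *Atp2b4* (686) and *Atp2a3* (408) at the highest means. Between letters, *Atp2a3* (0.80), *Orai3* (0.57), *Orai1* (0.56) and *Itpr1* (0.43) were higher in B. The muscle forms *Atp2a1* (−1.48) and *Ryr1* (−1.44), the neuronal pump *Atp2b2* (−1.0) and *Ryr3* (−1.01) were lower. With TMM scaling 10 of the 17 were called as higher in B and 4 as lower, where 30.3% of all genes were higher and 18.5% lower. The called genes of all 5 lists kept their sign. Of calcineurin and NFAT genes, which read out calcium signals, 6 of 12 were tested, with a median age difference of −0.02, *Nfatc3* (337) and *Ppp3ca* (190) at the highest means, and no call by letter in limma, where 2 had an unadjusted p under 0.05, against 4 called as higher in B with TMM scaling.

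**Figure D4:**
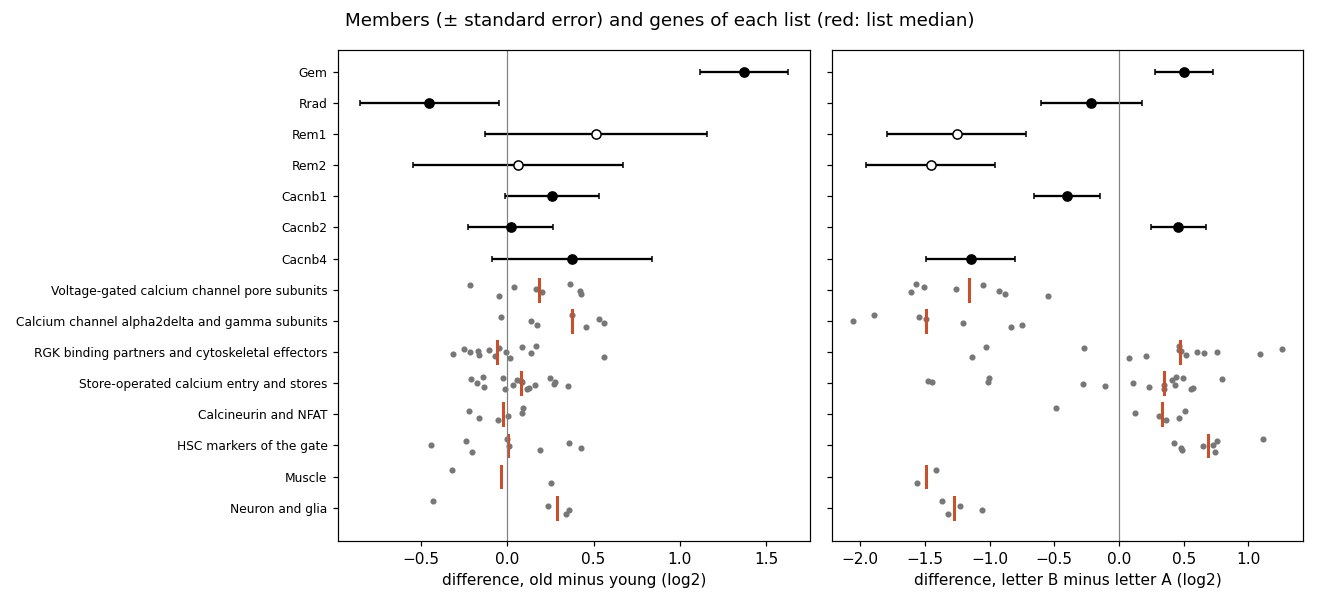
Log2 differences of the members, with standard errors, and of the tested genes of each list, with the list median in red, between ages (left) and between letters (right), open circles being members below the minimum mean of 10. In the left panel *Gem* stands at 1.37 beside lists of calcium genes with medians between −0.06 and 0.38, and in the right panel the channel subunits lie on the side of the muscle and neuron markers, with medians between −1.16 and −1.49.

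The genes whose values followed *Gem* most closely were named after the mean of each age and letter group was subtracted from log2(value + 1). Over the 12 mice the highest Pearson r was that of *Glod4* (0.987), then *Zfp526* (0.959), *Pigg* (0.954), *Sarnp* (0.953) and *Dhdds* (0.938). The lowest were those of *Trpv5* (−0.938), an epithelial calcium channel, *Lrrc29* (−0.932) and *Irak4* (−0.929). Of the members, *Cacnb2* had 0.789, *Rrad* 0.567, *Cacnb1* −0.443 and *Cacnb4* −0.609. These values are a description over 12 mice of unequal read depth, taken from the ends of all 12354 genes.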

How the data were processed

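RNA of 15000 sorted cells per mouse was depleted of ribosomal RNA, and 300 pg entered the TotalScript library kit per the labels. The submitters' processing notes list FastQC 0.11.8, STAR 2.5.4b, edgeR 3.24.3 and mm10. The counting tool, its strand setting and the annotation are not given in the sources used here. The authors deposited a signal, normalized read counts per gene and mouse. In it 100% of the values were whole multiples, within 0.05, of the worth of 1 read in that mouse, which gave the recovered reads. Their own comparison of ages, which holds fold changes and p-values, was not used.

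The members and lists were chosen with earlier results of these data known. Differences were fitted with limma 3.58.1 (R 4.3.3) on log2(value + 1) with a variance trend, for 12354 genes with a mean of at least 10, and Benjamini-Hochberg adjustment over all of them. Adding 1 understates the change of low genes. *Rem1* and *Rem2* were fitted with a minimum mean of 1. This test was kept although reads could be recovered, and edgeR 4.0.16 and DESeq2 1.42.0 on those reads were alternatives. P-values set each difference against the spread between mice, which limma moderates with that of the other genes. The limma fit of age was run on simulated reads, an outcome that is not given here. Positions and exon lengths came from GENCODE vM21, and tables were handled in Python 3.11.15 with numpy 2.4.6 and pandas 2.3.3.

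Named genes were all members with a row, each pathway gene called by age or letter up to the 4 largest changes in each direction per list, the 2 genes of highest mean per list, and the 5 genes with the highest and 3 with the lowest r with *Gem*. *Stim2*, *Vwf*, *Pf4* and *Emcn* were named after their values were seen. Replicate numbers from the labels joined different animals. Over the 5 pairs of equal number the correlation of deviations from the age means ran from −0.559 to 0.615. Its mean was 0.136, against −0.023 for unequal numbers. The letter was not removed and some pairs join different letters, so these values cannot decide whether the numbers pair the mice.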

Additional observations from a re-analysis of the deposited data

Results flagged for a closer look

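Of 14 groups examined (7 members in 2 ages), 2 held a mouse far from the others by Dixon's criterion, where chance gives about 1 in 20 groups, or 0.7 here. *Rrad* was at 20.3 in old mouse 1 (letter A), against 5.55 to 11.1 in the other old mice. *Rem2* was at 15.8 in old mouse 5 (letter A), against 1.31 to 6.61 in the other old mice.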

How the results depend on the processing

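*Gem* was higher in old mice in all 31 alternatives, from 1.22 to 1.68, and was called in 17 of them. *Rrad* was negative in all 31. *Cacnb1* was positive in 30 and at −0.00126 without old mice 5 and 7, *Cacnb2* was negative in 8 and *Cacnb4* in 4, with no call on any. By letter, *Cacnb4* was negative in all 20 alternatives and called in 18. It missed the threshold in the 2 others: in the fit with the replicate block (−0.77) and without old mouse 4 (−0.87).

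The count of all genes called between ages, 13 with limma, was 57 with DESeq2 and 41 with edgeR's likelihood ratio test. With the letter as a covariate it was 37 with limma, 43 with the quasi-likelihood test, 65 with the likelihood ratio test and 81 with DESeq2. It was 5 with TMM, 5 with median ratios, 2 without the trend, 1 in letter A alone, 100 in letter B alone and 49 without old mice 5 and 7. Leaving out 1 mouse gave between 3 and 32 calls. The cause was not tested. The count of genes whose age difference changed with the letter was 2, and 1 without a minimum mean. The count by letter ranged from 2943 to 5003 when 1 mouse was left out, and no pathway gene was called by age in any fit.

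With the replicate block over replicates 1 to 5, *Gem* differed by 1.58 and 19 genes were called, against 8 in the same mice unpaired. Since it is not known whether the numbers pair the mice, nothing is read from the block. Count tests with the letter, the unpaired replicates 1 to 5 and the fit without old mice 5 and 7 were chosen after the data were seen. Depth limits *Rem1* and *Rem2*, of at most 32 reads per mouse, for which few alternatives could be computed.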
